A study of Mus musculus with 3 samples.

Results

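The genes described here encode the machinery of oxidative phosphorylation in its nuclear and its mitochondrial set. They were chosen by gene symbol from the annotation of the count matrices, with no use of measured values. The nuclear set takes symbols that begin with Ndufa, Ndufb, Ndufc, Ndufs, Ndufv, Uqcr, Cox4 to Cox8 or Atp5, and Sdha to Sdhd. The mitochondrial set takes the protein-coding genes that begin with mt-Nd, mt-Co, mt-Cytb and mt-Atp, and pseudogene names were left out. The rule found 106 of the 31053 annotated genes, 93 nuclear and 13 mitochondrial. Among the nuclear genes, 36 belong to complex I, 4 to complex II, 8 to complex III, 20 to complex IV (Ndufa4 and Ndufa4l2 were counted there) and 17 to complex V. The remaining 8 are the Ndufaf genes, which the symbol pattern takes in although they encode assembly factors of complex I and not subunits.

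scRNAseq was carried out on 3 fresh rhabdoid tumours of the R26-SHH group, 1 tumour from each of 3 mice with the genotype Rosa 26-CreERT2::Smarcb1flox/flox. In this model a ubiquitous, tamoxifen-activated Cre deletes Smarcb1, a core subunit of the SWI/SNF chromatin remodelling complex, in cells of any type. All cells compared share that genotype and treatment, and animals without the deletion were not analysed here, so every comparison is between classes of cells inside the same 3 tumours. After filtering, 11062, 8754 and 6042 cells remained in tumours 1, 2 and 3, with median depths of 3855.5, 1937.5 and 2936 UMIs (unique molecular identifiers, 1 for each captured transcript), and the tumours shared 22 to 42 cell barcodes in pairs.

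Cells were assigned to classes by UMIs of marker genes, none of which is an oxidative phosphorylation gene. A class needed at least 3 distinct markers in the cell, and names describe these markers and not lineage. The tumour states were progenitor-like (1547, 761 and 851 cells in tumours 1, 2 and 3), stem-like (2396, 1696 and 1384), mesenchymal-like (1089, 644 and 435), neuronal-like (905, 980 and 163) and cycling (743, 352 and 552). The progenitor-like and stem-like cells together are called undifferentiated below. Immune-like (1066, 883 and 318 cells), endothelial-like (156, 149 and 187), mural-like (113, 66 and 103), oligodendrocyte-like (218 and 427, with too few in tumour 3) and astro-glial-like cells (381, 347 and 73) were gated in the same way, and 2409, 2303 and 1969 cells passed no gate.

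Smarcb1, the gene deleted in this model, was read first as a check of the classes. Levels are given as UMIs per 1000000 UMIs of the class (CPM), the sum over all cells of a class in 1 tumour. In the progenitor-like, stem-like, mesenchymal-like and cycling cells Smarcb1 lay between 0.19 and 1.65 CPM. Immune-like cells had 28.6, 18.2 and 20.8 CPM, endothelial-like cells 36.1, 39.3 and 45.9 CPM and mural-like cells 61.8, 46.4 and 66.3 CPM. Neuronal-like cells had 5.49, 2.03 and 3.04 CPM and astro-glial-like cells 3.94, 14.3 and 2.92 CPM. The astro-glial-like gate also held stem-like and progenitor-like markers at 96.1, 79.3 and 114% of their summed level in undifferentiated cells. These values go against reading that gate as normal astrocytes, and it is called by its gate only.

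Oxidative phosphorylation passes electrons from NADH and succinate through complexes I to IV of the inner mitochondrial membrane to oxygen, and complex V uses the proton gradient that results to make ATP. Most subunits are encoded in the nucleus and imported, while a small set of core subunits of complexes I, III, IV and V is encoded by mitochondrial DNA, transcribed as long joint transcripts and processed inside the organelle. Complex II is wholly nuclear. Several complex IV subunits and the subunit c of ATP synthase come as paralogous isoforms with different tissue patterns.

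Promoter sequences, which the selection had not used, were searched for motifs. Promoters of 300 bases, from 250 before to 50 after the transcription start, were found for 74 of the 92 nuclear symbols (79 promoters) in the RefSeq set for build GRCm38.p6. The motif of GCGC, any base and TGCGC, the consensus of nuclear respiratory factor 1, a transcription factor known for its targets among respiratory chain genes, was present on either strand in 20 of the 79 promoters (25.3%) against 4.60% of all 32851 promoters of that length. The ETS-type motif CCGGAAG was found in 22.8% against 8.86%, and the YY1-type motif AAGATGGC in 12.7% against 2.75%. CCAAT (43.0% against 37.4%), ACGTG (22.8% against 19.6%) and TATAA (15.2% against 24.9%) were nearer to the share over all promoters. No motif contains another, and a match is a description of the sequence, not evidence of binding. Windows of 40 bases around the motif are shown for 6 members that are named in the comparisons below, with the motif in capitals, which in Sdhd, Atp5h and Ndufb4 matches on the other strand.
Sdhd: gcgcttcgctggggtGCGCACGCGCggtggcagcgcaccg
Atp5g2: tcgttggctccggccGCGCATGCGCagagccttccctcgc
Atp5h: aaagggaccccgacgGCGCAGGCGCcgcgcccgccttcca
Ndufa8: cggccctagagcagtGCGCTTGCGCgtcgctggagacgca
Ndufaf4: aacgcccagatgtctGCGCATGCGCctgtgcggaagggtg
Ndufb4: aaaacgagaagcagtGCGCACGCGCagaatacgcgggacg
They lie at chr9:50603904-50603943 (Sdhd, minus strand), chr15:102671065-102671104 (Atp5g2, minus), chr11:115420036-115420075 (Atp5h, minus), chr2:36049344-36049383 (Ndufa8, minus), chr4:24897955-24897994 (Ndufaf4, plus) and chr16:37654535-37654574 (Ndufb4, minus). All 6 windows lie before the RefSeq start of transcription used for these promoters. In the GENCODE M21 annotation the genes Atp5g2 and Ndufa8 start further upstream, and their windows lie inside these gene models.

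The first question was how much of the RNA of each class comes from either set. The nuclear set took 25892, 24412 and 22473 CPM in progenitor-like cells and 27711, 25482 and 22533 CPM in stem-like cells of tumours 1, 2 and 3. Mesenchymal-like (27746, 25932 and 22899 CPM) and cycling cells (29241, 26571 and 23178 CPM) were at or above these levels in each tumour. Immune-like cells were the lowest, with 18894, 16897 and 17453 CPM, and endothelial-like cells had 20923, 21234 and 20353 CPM. All 6 of these vascular and immune values lay below every value of the tumour states. The log2 ratio to undifferentiated cells of the same tumour was -0.48 ± 0.10 in immune-like cells and -0.24 ± 0.11 in endothelial-like cells (mean ± SD, n = 3 tumours), lower in 3 of 3 tumours in both. These levels are shares of library totals, and both results depended on that scaling. With the TMM factors of the tests below, which correct for composition, the ratio was 0.10 ± 0.07 in immune-like cells, higher in 3 of 3 tumours, and -0.13 ± 0.17 in endothelial-like cells, lower in 2 of 3. In cycling cells it was 0.09 ± 0.04 on totals and 0.10 ± 0.02 with TMM factors, higher in 3 of 3 on both. Neuronal-like cells had 26578, 23552 and 22795 CPM, a ratio of -0.03 ± 0.05 on totals (lower in 2 of 3) and of -0.18 ± 0.05 with TMM factors (lower in 3 of 3). Mural-like cells, with 24247, 22560 and 24546 CPM, overlapped the tumour states. Sums over the members carry no test.

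The mitochondrial set did not follow the same order. It took 49605, 52564 and 45169 CPM in progenitor-like cells and 60893, 68812 and 51367 CPM in stem-like cells, a log2 ratio of 0.29 ± 0.10 between these states (higher in 3 of 3 tumours), while the nuclear set differed by only 0.05 ± 0.05. Cycling cells had 45510, 53032 and 44695 CPM, and their ratio to undifferentiated cells was -0.19 ± 0.08, lower in 3 of 3 tumours. Thinning each cell to 2000 UMIs left out shallower cells and gave the rest equal weight. It turned this mean ratio to 0.12 and took that of the nuclear set in cycling cells from 0.09 to 0.043. Immune-like cells, lowest for the nuclear set on library totals, had 47764, 60203 and 49872 CPM of mitochondrial transcripts, a ratio of -0.05 ± 0.13 on library totals and of 0.52 ± 0.06 with TMM factors. The highest levels were in the astro-glial-like gate (118355, 126955 and 63278 CPM) and in oligodendrocyte-like cells (84453 and 103848 CPM in the 2 tumours with a sum). Both gates were shallow in tumours 1 and 2, with median depths of 2051 and 1923 UMIs for astro-glial-like and 1414 and 1522 UMIs for oligodendrocyte-like cells, against 8995 and 7144 UMIs in progenitor-like cells. Among cells of at least 4000 UMIs the ratio of the mitochondrial set fell from 0.70 to 0.18 in oligodendrocyte-like cells and from 0.29 to 0.06 between stem-like and progenitor-like cells, and it was 0.67 in place of 0.86 in the astro-glial-like gate. Removing every cell that failed either quality limit, few genes or a high mitochondrial share, took the astro-glial-like ratio to 0.36.

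**Figure D1:**
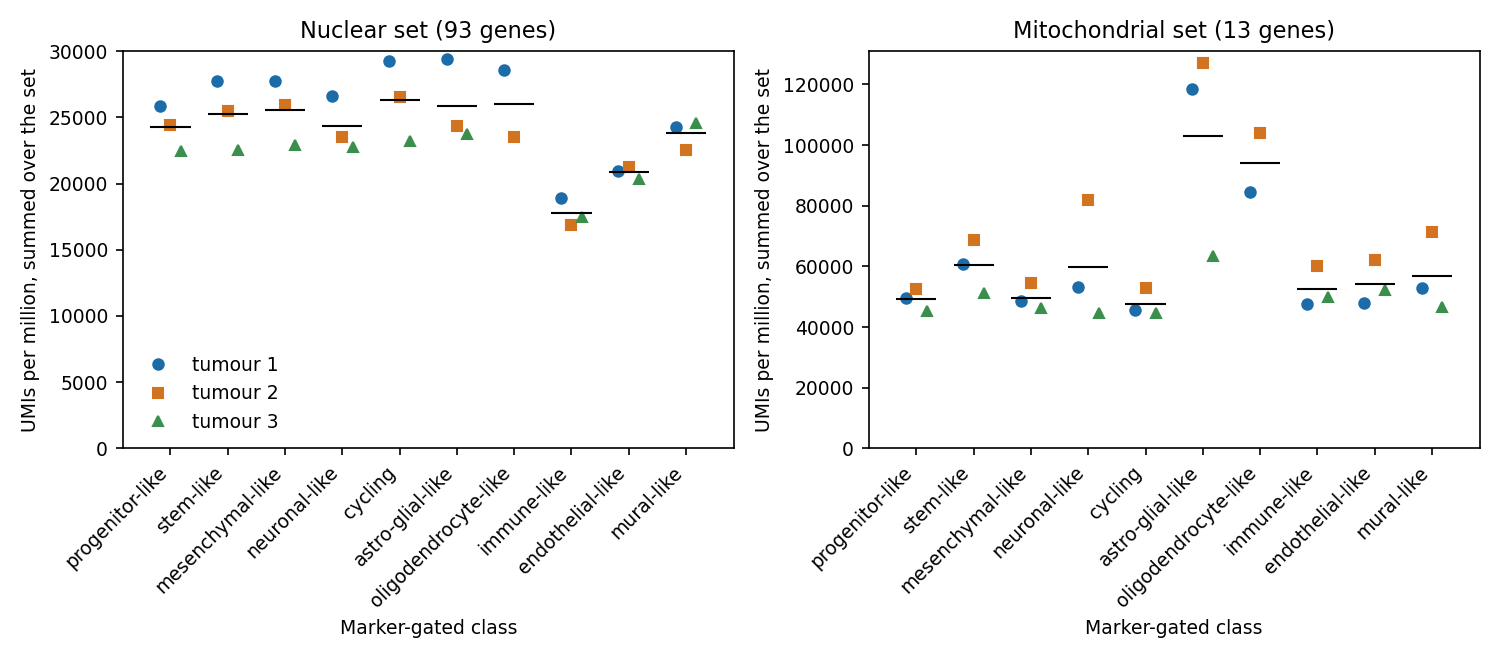
CPM summed over the nuclear set (left, 93 genes) and the mitochondrial set (right, 13 genes) in each marker-gated class, with 1 point per tumour and a bar at the mean. Immune-like and endothelial-like cells lie below the tumour states for the nuclear set on this scale of library totals, between 16897 and 21234 (with TMM factors the immune-like mean log2 ratio to undifferentiated cells is 0.10), while the astro-glial-like and oligodendrocyte-like gates are the highest for the mitochondrial set.

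The sets diverged with the depth of the cell. In cells of 1000 to under 2000 UMIs the mitochondrial set reached 171312, 158251 and 134134 CPM in tumours 1, 2 and 3, and in cells of 16000 UMIs or more it was 40477, 41950 and 42350 CPM. The nuclear set moved the other way, with 21450, 17386 and 16426 CPM in the first of these bins and 26690, 25181 and 22961 CPM in the second. Cells under 1000 UMIs did not continue the trend and had 32335, 28106 and 24564 CPM for the nuclear and 92069, 101837 and 60913 CPM for the mitochondrial set. Tumour 3 differed in the bin of 4000 to under 8000 UMIs, where its mitochondrial set was still at 112927 CPM against 55778 and 58762 CPM in tumours 1 and 2. The level of the mitochondrial set entered a filter limit, which removed cells only when they also had few genes.

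The same split was seen inside the undifferentiated cells. Those of 1000 to under 4000 UMIs (1149, 1010 and 567 cells) had 157975, 146098 and 160835 CPM of mitochondrial transcripts, against 44707, 44232 and 42677 CPM in those of 8000 UMIs or more (1812, 651 and 1337 cells). Their nuclear set was at 18385, 17175 and 13319 CPM against 27461, 26101 and 22966 CPM. Mitochondrial UMIs are themselves part of the denominator. When only UMIs from other than mitochondrial genes were taken as the total (CPM of these), the nuclear set was still lower in shallow cells, with 21834, 20113 and 15872 against 28747, 27308 and 23989. Malat1, a nuclear-retained RNA, was higher in the shallow cells (106888, 109056 and 48606 against 43162, 50998 and 25346 CPM), and so were immune markers (285, 519 and 175 against 66.8, 112 and 30.3 CPM) and erythroid markers (19.9, 99.1 and 4.14 against 4.91, 20.4 and 0.609 CPM). Stem-like markers were somewhat lower (5160, 4944 and 3556 against 6412, 6141 and 4262 CPM). The part that these other differences have in the split was not tested.

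**Figure D2:**
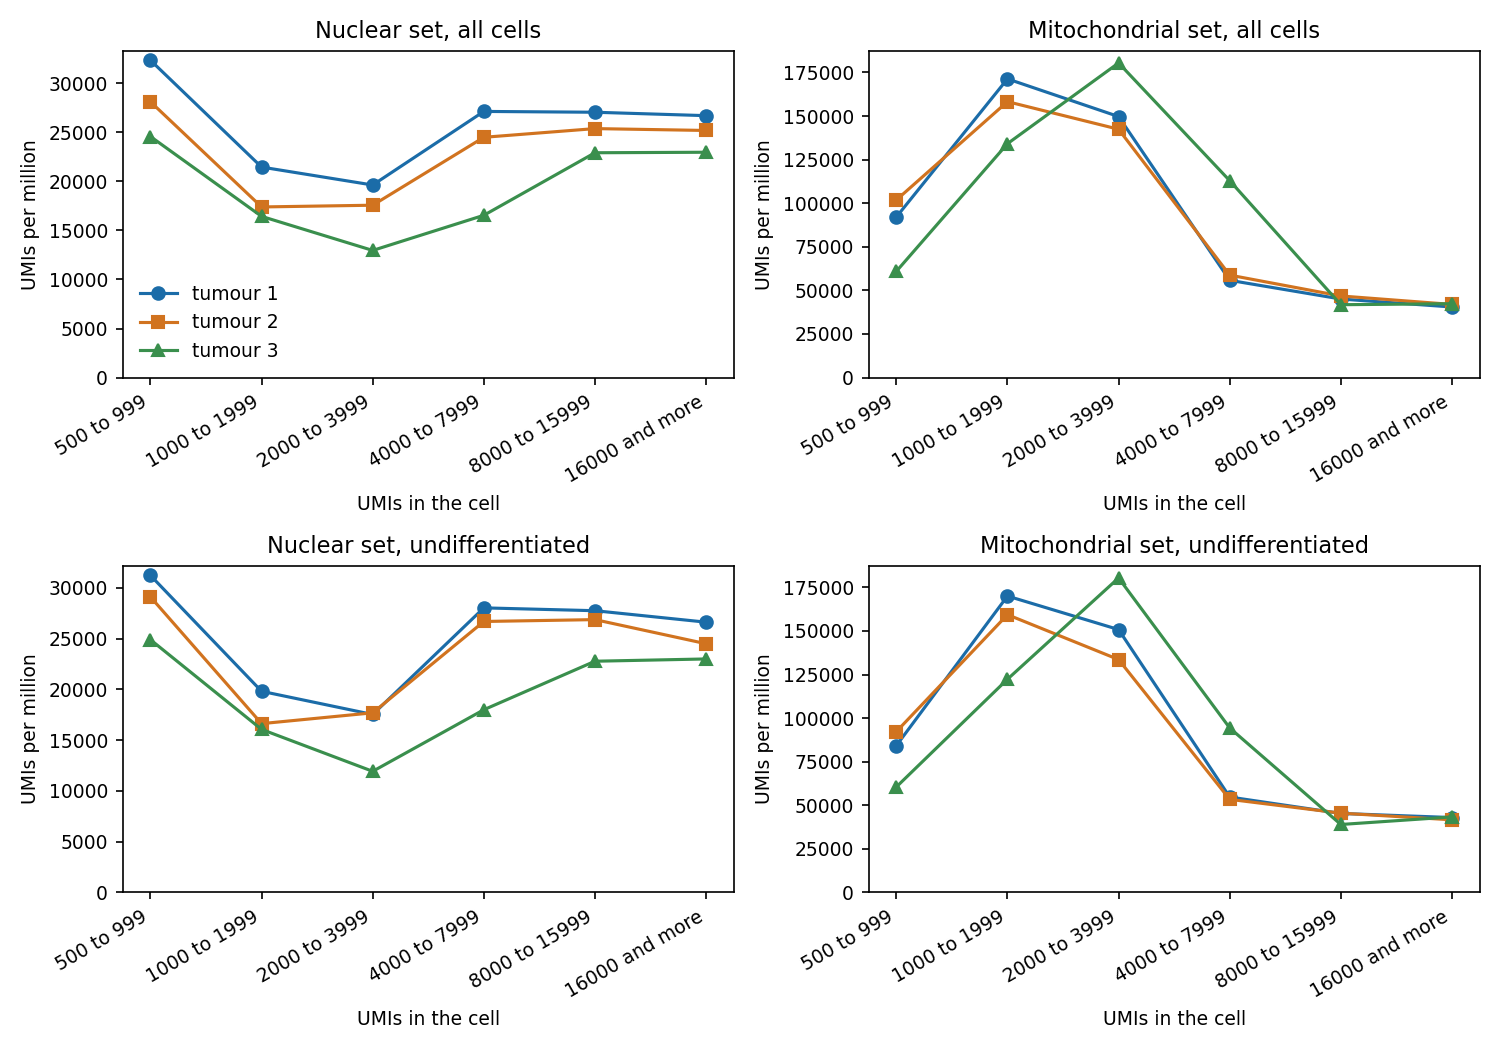
CPM of the nuclear set (left) and the mitochondrial set (right) by the number of UMIs in the cell, for all cells (top) and undifferentiated cells (bottom), with 1 line per tumour. The mitochondrial set is highest between 1000 and 4000 UMIs, where the nuclear set dips, and both are nearly level from 8000 UMIs upward.

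Gene by gene, the split held for almost all members with enough counts. Of the 93 nuclear genes, 85 had at least 10 UMIs in every sum, and 79 of them were lower in shallow than in deep undifferentiated cells in 3 of 3 tumours (median log2 ratio -0.71), where 33.9% of the 9453 genes with such counts were lower and the median over all genes was 0.05. All 13 mitochondrial genes were higher in 3 of 3 tumours (38.7% of all genes were), with a median of 1.80 and a narrow range from 1.53 for mt-Atp8 to 2.03 for mt-Nd6. The nuclear genes spread more widely. The lowest were Cox7a2l, a complex IV supercomplex factor (log2 ratio -1.24), Sdhc, a membrane anchor of complex II (-1.22), and the complex I subunit Ndufs8 (-1.06). Sdha, the catalytic flavoprotein of the same complex II, was at -0.15, Ndufv1 at -0.01 and Cox6c at 0.02. Only Ndufs1 (0.63) and Ndufaf7 (0.85) were higher in all tumours, and exons of Ndufs1 overlap those of Eef1b2 and Ino80dos on the other strand. These ratios describe the cells and carry no test.

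**Figure D3:**
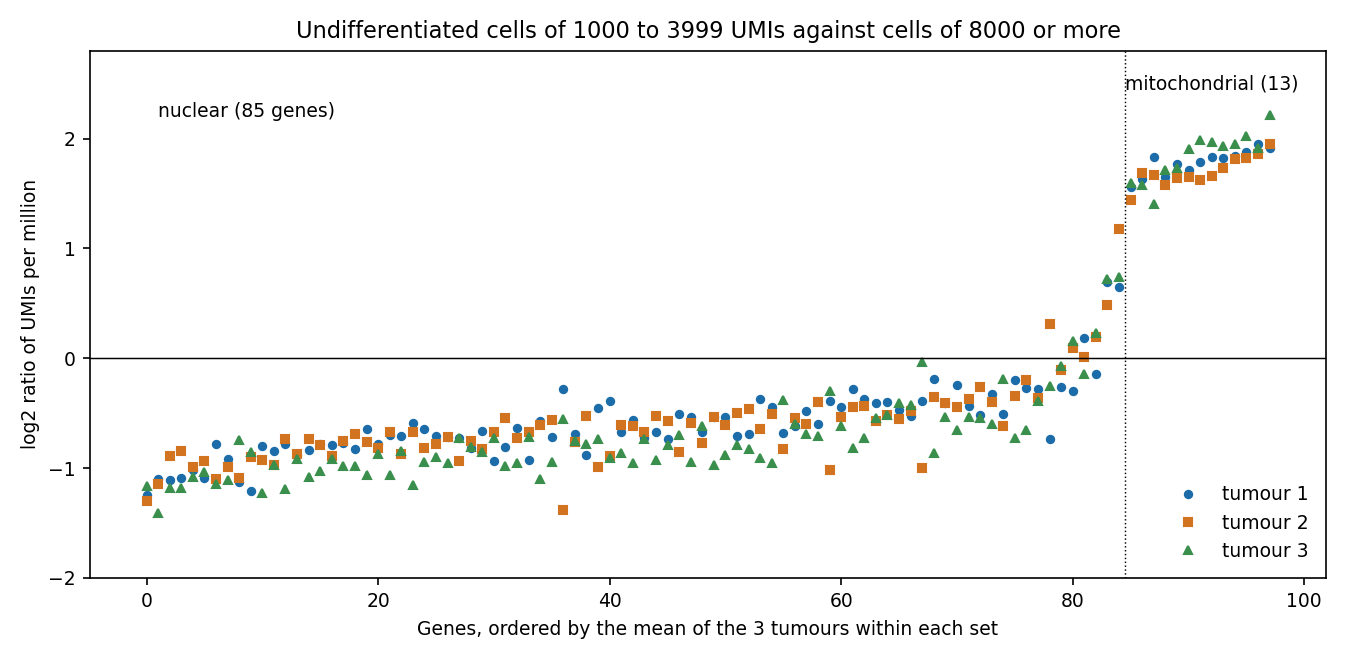
log2 ratio of CPM between undifferentiated cells of 1000 to under 4000 UMIs and those of 8000 or more, for 85 nuclear and 13 mitochondrial genes in order of their mean, with 1 symbol per tumour. Nearly all nuclear genes lie below 0 and all mitochondrial genes lie between 1.53 and 2.03 in the mean.

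The sets were also compared from cell to cell within a class. In stem-like cells of at least 2000 UMIs (1664, 891 and 946 cells), Spearman's rho between the sets was -0.22, -0.28 and -0.35 in tumours 1, 2 and 3. Depth was not equalised between these cells. The mitochondrial set correlated with the depth of the cell at -0.47, -0.54 and -0.31, and the nuclear set at 0.35, 0.40 and 0.46. Cycling cells gave -0.21, -0.34 and -0.38 between the sets. The relation was near 0 in progenitor-like cells of tumours 1 and 2 (-0.0095 and -0.023, with -0.27 in tumour 3) and in neuronal-like cells of tumour 1 (0.0034, with -0.30 and -0.22 in the other tumours). In immune-like cells the sets gave 0.11, 0.15 and -0.12. The nuclear set was taken as a share of the cell's UMIs from other than mitochondrial genes, and the mitochondrial set as a share of all its UMIs. Both come from the same libraries and depth was left as it was, so these values are descriptions only.

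For the comparisons of classes, UMIs were summed per tumour and class and tested in edgeR's quasi-likelihood test with the tumour as a block, over all 15517 genes that passed the filter on low counts. Of the 106 members 103 were tested. Cox7b2, Cox8b and a second Atp5o entry, which held 0 UMIs, did not pass. A gene was called at an adjusted p (Benjamini-Hochberg over all genes) under 0.05. Log2 differences are with TMM unless another scaling is named, while CPM are shares of library totals, and the sizes of the difference can be unlike, most of all in immune-like cells. Since class sums can differ in composition, each call was set beside that under 2 other scalings, RLE size factors and plain library totals. All class sums of the 3 tumours entered a shared fit, also those of classes not compared. The spread behind the p-values is therefore pooled over classes and is not that of the 3 differences of a comparison. Comparisons with undifferentiated cells share these cells. In each of the 6 comparisons the share of members called was below that of all genes tested. A level difference between genes is not read from the counts, which are tags of transcript ends and were not scaled by gene length.

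The isoforms of complex IV gave the largest differences in mural-like cells, gated by markers of pericytes and smooth muscle cells of vessel walls. Cox4i2 (chr2:152754173-152765037, plus strand, GRCm38) encodes the alternative form of subunit 4, known for its oxygen-dependent use in lung and vessels. It had 383, 224 and 403 CPM in mural-like cells of tumours 1, 2 and 3, from 192, 53 and 431 UMIs, against 0.0994, 0.146 and 0.317 CPM in undifferentiated cells, from 3, 2 and 10 UMIs. The ratios were 3850, 1534 and 1271, with 95% counting intervals of 1298 to 18834, 404 to 13000 and 684 to 2669. The log2 difference was 10.73 (SE 0.30, edgeR adjusted p = 1.20e-17). Ndufa4l2 (chr10:127514967-127517154, plus strand), a paralogue of Ndufa4 known as a target of hypoxia-inducible factor, had 786, 426 and 865 CPM against 0.530, 0.219 and 0.634 CPM, a log2 difference of 10.48 (SE 0.29, edgeR adjusted p = 1.06e-17). Its exons overlap those of Shmt2 on the other strand. The partner genes moved differently. Ndufa4 (chr6:11900292-11907497, minus strand), which encodes the common form of this subunit, fell to 225, 342 and 268 CPM from 780, 769 and 677 CPM, by 1.43 on the log2 scale (SE 0.12, edgeR adjusted p = 8.45e-10). Cox4i1, the common form of subunit 4, had 1097, 1144 and 947 CPM in mural-like and 1274, 1260 and 940 CPM in undifferentiated cells and was not called.

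As a share of the UMIs of each pair, Cox4i2 made up 24.0 ± 6.92% of Cox4i1 plus Cox4i2 in mural-like cells (mean ± SD, n = 3 tumours), 1.62 ± 1.26% in endothelial-like cells and at most 0.0246% on average in any tumour state. Ndufa4l2 made up 69.8 ± 12.5% of its pair in mural-like cells and 4.08 ± 1.59% in endothelial-like cells. Cox4i2 was seen in 69.0, 51.5 and 49.5% of mural-like cells, and in 0.129, 0.263 and 0.588% of progenitor-like cells, taken as the background level, at median depths of 3519, 2336 and 2482 UMIs against 8995, 7144 and 17814 UMIs. The share was 0.375, 0.566 and 0.314% in immune-like cells. Thinned to 2000 UMIs, the mural-like share was 48.8, 51.4 and 54.8%, with 27, 29 and 41 shallower cells left out. Mural-like cells with a UMI of the smooth muscle genes Acta2, Myh11 or Tagln (28, 16 and 59 cells) had 272, 214 and 282 CPM of Cox4i2, and those without (85, 50 and 44 cells) had 447, 228 and 634 CPM. That split was chosen after the values had been seen. Both subsets held Cox4i2 and Ndufa4l2 at over 200 CPM in each tumour.

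Endothelial-like cells also held both isoforms, at much lower levels. Cox4i2 had 10.2, 8.55 and 24.4 CPM, from 11, 5 and 34 UMIs, with a log2 difference to undifferentiated cells of 6.32 (SE 0.43, edgeR adjusted p = 2.02e-11). Ndufa4l2 had 28.7, 15.4 and 39.4 CPM (log2 difference 5.99, SE 0.38, edgeR adjusted p = 6.91e-12). Mural markers moved with these values. The 10 mural markers summed to 712, 663 and 1412 CPM in endothelial-like cells, which is 3.16, 5.19 and 5.85% of their level in mural-like cells, and Cox4i2 stood at 2.66, 3.82 and 6.05% and Ndufa4l2 at 3.66, 3.61 and 4.56% of the mural level. In each tumour the isoforms and the markers stood at like percentages of the mural level, and the part of mural RNA in the endothelial values was not tested.

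**Figure D4:**
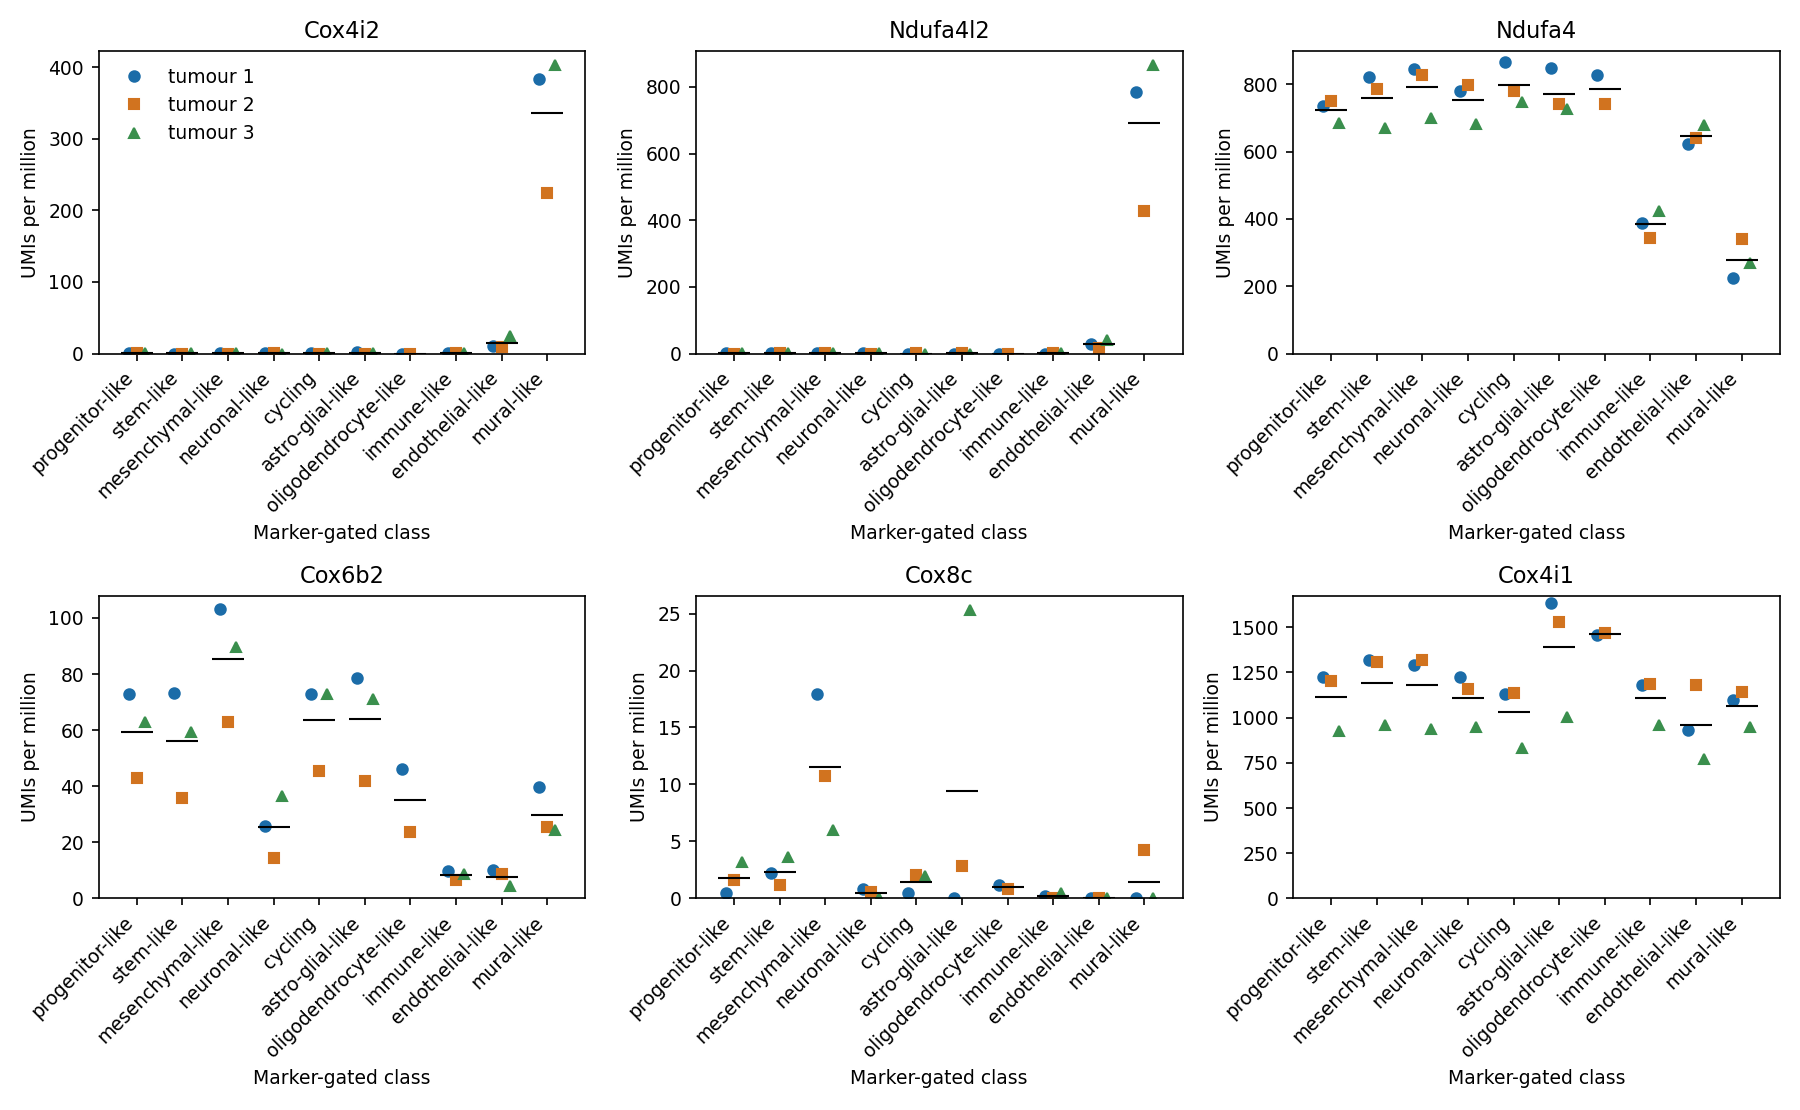
CPM of 6 complex IV genes in each marker-gated class, with 1 point per tumour, a bar at the mean and a separate axis for each gene. Cox4i2 and Ndufa4l2 stand out in mural-like cells, where Ndufa4 is lowest, Cox6b2 is highest in mesenchymal-like cells, and Cox4i1 is at 771 or more in every class and tumour.

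Cox6b2, a subunit 6b isoform best known from testis (chr7:4751792-4753094, minus strand), was lower in neuronal-like cells than in undifferentiated cells. It had 73.1, 38.9 and 61.0 CPM in undifferentiated cells of tumours 1, 2 and 3. Mesenchymal-like cells were higher in each tumour, with 103, 63.1 and 89.8 CPM, and cycling cells had 72.7, 45.5 and 72.9 CPM. Neuronal-like cells were lower in each, with 25.7, 14.5 and 36.4 CPM, a log2 difference of -1.37 (SE 0.15, edgeR adjusted p = 3.54e-07). As a share of Cox6b1 plus Cox6b2 it took 14.9 ± 2.35% of UMIs in mesenchymal-like, 11.6 ± 2.91% in cycling, 11.2 ± 2.10% in progenitor-like, 10.4 ± 2.75% in stem-like and 4.85 ± 2.18% in neuronal-like cells. The progenitor-like, stem-like and cycling shares lay within their spread of one another, and mesenchymal-like cells were not tested. Stem-like and progenitor-like markers moved with the neuronal-like values, at 31.9, 28.1 and 49.9% of their undifferentiated level where Cox6b2 was at 35.2, 37.3 and 59.8%, and their part in the difference was not tested. Outside the tumour states it had 9.89, 6.46 and 8.87 CPM in immune-like and 10.2, 8.55 and 4.30 CPM in endothelial-like cells, with log2 differences of -2.17 (SE 0.17, edgeR adjusted p = 7.62e-11) and -2.91 (SE 0.23, edgeR adjusted p = 2.06e-10). These levels are 13.5, 16.6 and 14.5% of the undifferentiated level in immune-like cells, which held stem-like and progenitor-like markers at 14.5, 16.0 and 26.0%. In endothelial-like cells Cox6b2 stood at 13.9, 22.0 and 7.05% and these markers at 23.6, 30.3 and 35.5%. In mural-like cells Cox6b2 stood at 54.6, 65.2 and 39.8% and these markers at 33.1, 40.9 and 54.0%.

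The promoters of Cox6b2, with the CCAAT letters in capitals on either strand, and of Ndufa4, which holds none of the 6 motifs, are shown because both were called lower under every scaling tried, Cox6b2 in neuronal-like and Ndufa4 in mural-like cells.
Cox6b2: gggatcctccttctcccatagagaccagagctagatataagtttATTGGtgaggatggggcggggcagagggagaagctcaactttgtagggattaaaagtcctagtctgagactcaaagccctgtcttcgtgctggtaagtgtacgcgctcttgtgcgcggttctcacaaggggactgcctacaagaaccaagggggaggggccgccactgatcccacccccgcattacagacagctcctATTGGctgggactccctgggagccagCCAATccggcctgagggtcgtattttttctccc
Ndufa4: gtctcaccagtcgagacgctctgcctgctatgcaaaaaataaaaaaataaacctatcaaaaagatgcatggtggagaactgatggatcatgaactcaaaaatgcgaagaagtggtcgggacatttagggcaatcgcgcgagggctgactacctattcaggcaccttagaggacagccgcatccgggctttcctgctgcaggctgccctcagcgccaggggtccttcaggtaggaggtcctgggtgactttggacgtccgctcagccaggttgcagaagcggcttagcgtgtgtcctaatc
The first is chr7:4753045-4753344 and the second chr6:11907401-11907700, both on the minus strand in GRCm38.p6, printed 5′ to 3′ along the gene. Cox6b2 has CCAAT at 3 places and TATAA at 1, and neither gene has the nuclear respiratory factor motif in this window. Promoters of Cox4i2, Ndufa4l2, Cox4i1 and Cox8c are not shown.

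Cox8c and Cox6a2 are rarer isoforms. Cox8c, another isoform known from testis, had 17.9, 10.7 and 6.02 CPM in mesenchymal-like cells against 1.39, 1.38 and 3.42 CPM in undifferentiated cells, a ratio of 12.9 (95% counting interval 9.20 to 18.4), 7.74 (4.55 to 13.8) and 1.76 (1.22 to 2.51). It was higher in every tumour, by very different amounts, and mesenchymal-like cells were not among the classes tested. The astro-glial-like gate of tumour 3 reached 25.3 CPM of Cox8c, and that of tumours 1 and 2 had 0 and 2.86 CPM. Cox6a2, the isoform of heart and skeletal muscle, had 9.35, 3.11 and 7.10 CPM in immune-like cells from 52, 13 and 16 UMIs. Undifferentiated cells had 30 and 14 UMIs of it in tumours 1 and 2 (0.994 and 1.02 CPM) and 0 in tumour 3. The ratios were 9.40 (95% counting interval 5.89 to 15.3) and 3.05 (1.32 to 6.99) in tumours 1 and 2, and in tumour 3 the interval began at 54.0. As a share of Cox6a1 plus Cox6a2 it took 2.55 ± 1.09% of UMIs in immune-like cells, 2.29 ± 1.84% in oligodendrocyte-like cells (n = 2 tumours) and 1.06 ± 0.74% in the astro-glial-like gate, the last 2 of which were not tested. The log2 difference was 4.37 (SE 0.61, edgeR adjusted p = 1.18e-06). Exons of Cox6a2 overlap those of Itgad, an integrin gene, on the other strand.

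The neuronal-like cells, gated by neuronal markers, were compared with undifferentiated cells. Smarcb1 was itself called higher in them (log2 difference 2.19, SE 0.47, edgeR adjusted p = 1.18e-03), at 2.03 to 5.49 CPM, and the part of cells that kept the gene in this gate was not tested. Of the 103 members 15 were called, 0 higher and 15 lower, where 26.6% of all genes tested were called (14.4% higher and 12.2% lower), and the median log2 difference was -0.13 over the members and -0.00 over all genes. None of the 13 mitochondrial genes was called (median -0.02), with 0 at an unadjusted p under 0.05 and 0 called by DESeq2. With library totals the split was 4 higher and 4 lower (20.2 and 7.43% of all genes). The 4 that were lower under all 3 scalings and in 3 of 3 tumours (7.33% of all genes were) were Cox6b2, Ndufaf8, Uqcrh and Atp5h. Uqcrh, the hinge protein of complex III, had 791, 551 and 705 CPM against 894, 738 and 853 CPM and fell by 0.44 on the log2 scale (SE 0.09, edgeR adjusted p = 1.07e-03). Atp5h, subunit d of the ATP synthase stalk, had 465, 371 and 476 CPM against 500, 488 and 595 CPM, and its fall was 0.41 (SE 0.10, edgeR adjusted p = 2.41e-03). Ndufaf8, an assembly factor of complex I, fell by 0.55 (SE 0.12, edgeR adjusted p = 9.62e-04). These 4 were also called when tumour-state cells with a Smarcb1, Ptprc or Epcam UMI were left out, where 9 members and 22.5% of all genes were called. Without tumour 1 there were 4 members and 9.69% of all genes, and without tumour 2 there were 5 members and 13.3%. The values of Atp5h did not overlap between the classes, while those of Uqcrh overlapped across tumours and were lower within each.

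Cycling cells were compared with undifferentiated cells outside the cycling gate. Here 14 members were called, 11 higher and 3 lower, where 17.8% of all genes were called (11% higher and 6.75% lower), and the members' median was 0.11 against -0.05 over all genes. Under all 3 scalings and in 3 of 3 tumours, 10 were higher and 2 lower (10.4 and 6.63% of all genes). The higher genes came from each of complexes I to V and from assembly. Without tumour 1 0 members were called, without tumour 2 there were 3, and after thinning each cell to 2000 UMIs, without shallower cells, there were 2. The share of all genes called fell as well, to 5.21, 9.18 and 12.4%. Ndufaf2, an assembly factor of complex I, had 113, 93.3 and 86.7 CPM in cycling cells against 67.4, 66.2 and 57.7 CPM, without overlap (log2 difference 0.62, SE 0.12, edgeR adjusted p = 7.56e-04). Cox5a had 356, 344 and 265 CPM against 243, 242 and 212 CPM (0.48, SE 0.15, edgeR adjusted p = 0.0288). Atp5g2, which encodes subunit c of the ATP synthase ring, had 815, 664 and 637 CPM against 617, 503 and 493 CPM (0.41, SE 0.08, edgeR adjusted p = 1.02e-03), while the other subunit c genes Atp5g1 and Atp5g3 were not called. Sdhd, the small anchor of complex II, rose by 0.35 in cycling cells and fell by 0.32 in neuronal-like cells on the log2 scale with TMM (edgeR adjusted p = 0.0137 and 0.0222). Cox7a2l and Uqcrh were lower, by 0.37 and 0.32. The third call in that direction, Ndufa4l2, rested on 1 UMI in cycling cells. None of the mitochondrial genes was called (median -0.19). Immune markers moved with the cycling gate in tumours 1 and 2, at 370 and 699 CPM against 77.8 to 109 and 179 to 240 CPM in progenitor-like and stem-like cells, and were at 46.8 CPM against 36.0 and 42.1 CPM in tumour 3. Their part in the calls was not tested.

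Between stem-like and progenitor-like cells 0 members were called, where 1.22% of all genes were called (0.825% higher and 0.393% lower). DESeq2 called 1 member, where it called 4.61% of all genes. At an unadjusted p under 0.05 there were 6 members, and no share of all genes was taken at that limit. The median was 0.09 over the members and 0.02 over all genes. The mitochondrial genes had a median of 0.30, and 4 of the 13 were at an unadjusted p under 0.05.

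**Figure D5:**
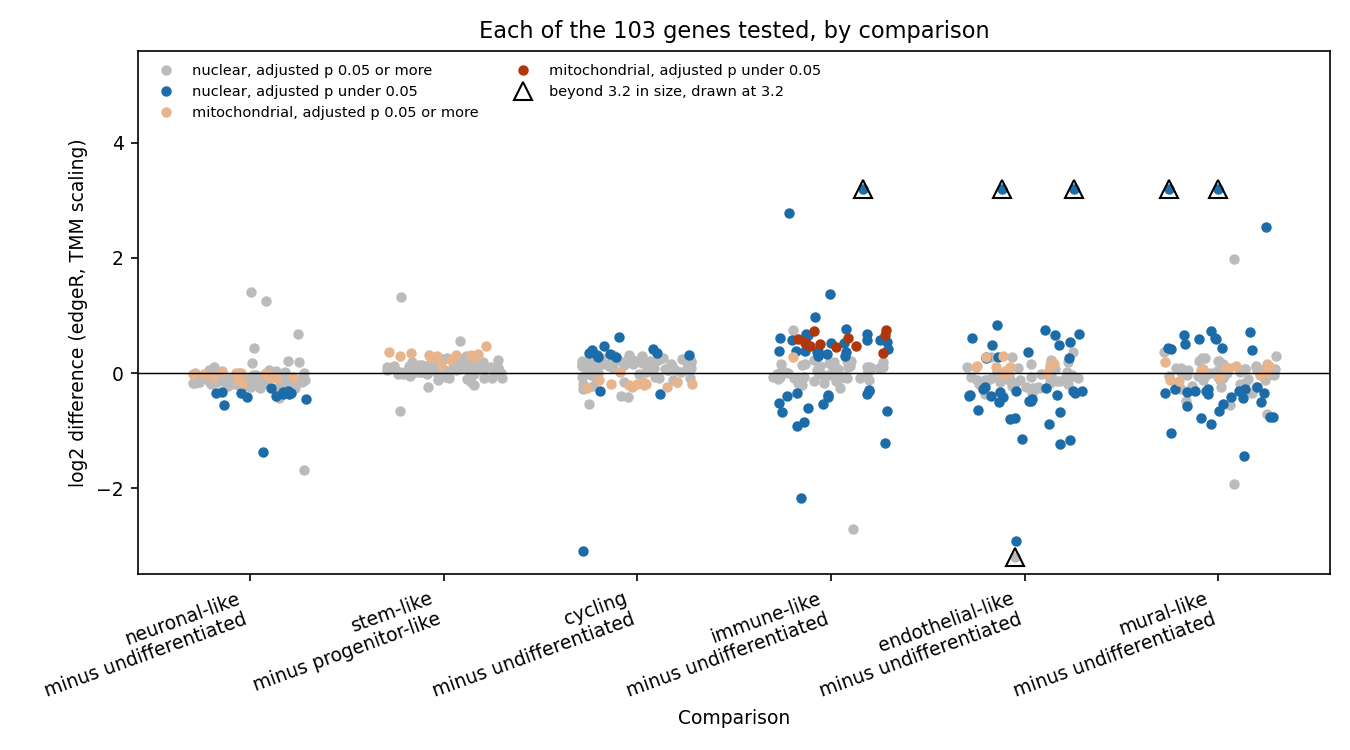
log2 difference of each of the 103 members tested (y axis, edgeR with TMM scaling) in the 6 comparisons (x axis), with called genes in strong colours, mitochondrial genes in orange and differences beyond 3.2 in either direction drawn at 3.2 with a triangle. No member was called between stem-like and progenitor-like cells, and the mitochondrial genes were called in immune-like cells only, under this scaling.

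Immune-like cells, which kept Smarcb1, gave the most calls, and their direction depended on the scaling. With TMM 53 members were called, 37 higher and 16 lower, where 61.5% of all genes were called (29.9% higher and 31.6% lower). With library totals 3 were higher and 68 lower (19.3 and 53.1% of all genes). The TMM factors of immune-like sums were 0.628, 0.733 and 0.737, and the median log2 difference over all genes was -0.12 with TMM and -0.70 with totals, against 0.11 and -0.47 for the members. On both scales the median of the members lay above that of all genes. The mitochondrial genes followed the scaling too. With TMM 12 of the 13, all but mt-Cytb, were called higher (median 0.52), and with totals 0 were higher and 1 lower. mt-Co1, a catalytic subunit of complex IV, had 7831, 12205 and 6673 CPM in immune-like and 8644, 11296 and 5600 CPM in undifferentiated cells, which overlap.

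In immune-like cells 3 members were higher and 16 lower under all 3 scalings and in 3 of 3 tumours. Of all genes 18.3% were higher and 31.3% lower in this way, so lower calls were the more frequent over all genes as well. Assembly factors of complex I took 5 of the 16, namely Ndufaf5, Ndufaf4, Ndufaf6, Ndufaf2 and Ndufaf1. Ndufaf4 had 21.8, 27.02 and 25.3 CPM against 61.0, 69.6 and 68.3 CPM, without overlap, and fell by 0.85 on the log2 scale with TMM (SE 0.13, edgeR adjusted p = 5.66e-06). Of the complex I subunits, Ndufb4 had 136, 117 and 118 CPM against 365, 336 and 201 CPM and fell by 0.66 (SE 0.16, edgeR adjusted p = 9.99e-04), and Ndufa12, Ndufs4, Ndufv2, Ndufs6 and Ndufa5 fell by 0.61 to 0.32. The higher ones were Cox6a2, Cox4i2 and Ndufa1. The Cox4i2 call rested on 4, 5 and 1 UMIs (0.719, 1.20 and 0.444 CPM), with ratios of 7.23 (95% counting interval 1.22 to 49.4), 8.20 (1.34 to 86.1) and 1.40 (0.032 to 9.84). Ndufa1, a complex I subunit encoded on the X chromosome, had 238, 200 and 254 CPM against 157, 155 and 223 CPM and rose by 0.97 (SE 0.11, edgeR adjusted p = 5.97e-08). Sdhb, the iron-sulfur subunit of complex II, had a difference of 0.67 with TMM (edgeR adjusted p = 7.37e-05) but levels of 106, 104 and 101 CPM against 106, 97.0 and 90.0 CPM.

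In endothelial-like cells 41 members were called, 15 higher and 26 lower, where 54.1% of all genes were called (24.7% higher and 29.4% lower). The median was -0.09 over the members and -0.22 over all genes. Library totals gave 10 higher and 43 lower (22.6 and 34.3% of all genes) and RLE factors 21 and 17 (27 and 25.8%). Under all 3 scalings and in 3 of 3 tumours 10 were higher and 17 lower (20.4 and 25.6% of all genes). Beside the 2 isoforms above, the higher ones included Cox5a with 340, 328 and 467 CPM against 243, 242 and 212 CPM (log2 difference 0.84, SE 0.15, edgeR adjusted p = 6.16e-05), Ndufv1, which binds NADH in complex I, with 73.2, 73.5 and 97.5 CPM against 57.9, 56.6 and 47.6 CPM (0.74, SE 0.15, edgeR adjusted p = 1.37e-04), and Ndufa8 with 170, 162 and 214 CPM against 137, 120 and 135 CPM (0.61, SE 0.11, edgeR adjusted p = 7.95e-05). None of these overlapped. Among the lower ones, Cox7c had 706, 805 and 638 CPM against 1313, 1321 and 1022 CPM and fell by 0.64 (SE 0.09, edgeR adjusted p = 1.68e-06). Atp5g1, subunit c of the ATP synthase, had 250, 231 and 263 CPM against 498, 423 and 394 CPM and fell by 0.69 (SE 0.12, edgeR adjusted p = 2.71e-05). Ndufaf4, Ndufaf6, Ndufaf2 and Ndufaf1 fell here as well, by 1.24, 1.14, 0.80 and 0.79.

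In mural-like cells 37 members were called, 14 higher and 23 lower, where 45.5% of all genes were called (21.9% higher and 23.6% lower), with a median of -0.00 over the members and -0.20 over all genes. RLE factors gave 22 higher and 9 lower (24.6 and 18.5% of all genes). Under all 3 scalings and in 3 of 3 tumours 13 were higher and 9 lower (17.9 and 18% of all genes). Apart from Cox4i2 and Ndufa4l2 the higher ones were subunits of complexes I, III and V and the assembly factor Ndufaf3. Uqcrc1, a core subunit of complex III, had 148, 135 and 151 CPM against 96.3, 87.5 and 83.4 CPM (log2 difference 0.73, SE 0.12, edgeR adjusted p = 1.50e-05). Uqcrb rose by 0.58 and Ndufv1 by 0.71. Ndufv1, Uqcrc1 and Uqcrb were also called higher in endothelial-like cells, and these comparisons share the undifferentiated cells. Endothelial markers were also present in the mural-like sums, at 1097, 2397 and 4084 CPM, which is 7.91, 17.3 and 31.9% of their level in endothelial-like cells, and immune markers stood at 163, 1650 and 121 CPM. Their part in these calls was not tested. The lower ones were led by Ndufa4 and Cox6b2 and included Cox7a2l (255, 215 and 231 CPM against 410, 360 and 424 CPM, a fall of 0.78), Cox7c (0.53) and Atp5g1 (0.66). Cox7a1, the muscle isoform of subunit 7a, had a difference of 2.54 but only 4, 0 and 8 UMIs.

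Complex II is the smallest of the complexes, and its calls are listed by gene and not read as a share. With TMM 17.8% of all genes were called in cycling, 26.6% in neuronal-like, 54.1% in endothelial-like and 61.5% in immune-like cells. Of its 4 genes, Sdhd was called higher in cycling cells under all 3 scalings. The other calls depended on the scaling. Sdhd in neuronal-like cells was called with TMM only (edgeR adjusted p = 0.0535 with RLE factors and 0.228 with totals). Sdhc was lower in endothelial-like cells by 0.31 with TMM (edgeR adjusted p = 0.0238) and was called with totals but not with RLE factors (0.141). Sdhb was higher in immune-like cells with TMM. Sdha was called in none of the 6 comparisons. The 8 assembly factors were mostly lower where they were called in the non-tumour classes. With TMM 5, 5 and 4 of them were lower in immune-like, endothelial-like and mural-like cells, and 2, 1 and 1 higher, where 31.6, 29.4 and 23.6% of all genes were lower. Their median log2 differences were -0.53, -0.79 and -0.57, against -0.12, -0.22 and -0.20 over all genes. With totals the lower counts were 5, 6 and 4, where 53.1, 34.3 and 24.1% of all genes were lower. With RLE factors they were 4 in endothelial-like and 2 in mural-like cells, where 25.8 and 18.5% were.

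Genes of neighbouring pathways were counted in the same fit, and for endothelial-like and mural-like cells the counts are given with TMM only. RLE factors moved the shares of all genes higher and lower to 27 and 25.8% in endothelial-like and to 24.6 and 18.5% in mural-like cells. Of all genes 29.9% were higher and 31.6% lower in immune-like cells (19.3 and 53.1% with totals), 24.7 and 29.4% in endothelial-like, 21.9 and 23.6% in mural-like, 14.4 and 12.2% in neuronal-like (20.2 and 7.43% with totals) and 11 and 6.75% in cycling cells, and several of the counts below lay near or under these shares. Of 21 glycolysis genes 14 were higher and 3 lower in immune-like cells (11 and 3 with totals), 10 and 4 in endothelial-like and 12 and 3 in mural-like cells, but 3 and 6 in neuronal-like and 3 and 3 in cycling cells. Examples in mural-like cells were Pfkp, a phosphofructokinase (log2 difference 4.17), the glucose transporter Slc2a1 (3.57) and Ldha, a lactate dehydrogenase (2.11). The mural-like sums held endothelial markers at 7.91, 17.3 and 31.9% of their endothelial-like level, and the part of endothelial RNA in these mural-like values was not tested. Of 12 genes of the hypoxia response 7 were higher and 2 lower in endothelial-like and 6 and 1 in mural-like cells, with Ndrg1 at 6.92 and 5.68. In immune-like cells 4 were higher and 3 lower (2 and 6 with totals), in neuronal-like cells 1 and 2 and in cycling cells 1 and 0. Of 15 genes of mitochondrial biogenesis 9 were lower and 4 higher in endothelial-like cells and 8 and 3 in mural-like cells, and 5 and 3 in immune-like (10 and 1 with totals), 2 and 1 in neuronal-like and 1 and 1 in cycling cells. Ppargc1a, a coactivator of mitochondrial biogenesis, had differences of -2.90, -2.70 and -3.46 in immune-like, endothelial-like and mural-like cells, while Esrra, a nuclear receptor it works with, rose by 1.73 in immune-like and 1.29 in mural-like cells. Of 77 mitochondrial ribosomal protein genes tested 11 were higher and 0 lower in cycling cells, 1 and 15 in the neuronal-like class (2 and 3 with totals) and 1 higher and 27 lower in mural-like cells. In endothelial-like cells 2 were higher and 36 lower, and in immune-like cells 10 and 20 (0 and 65 with totals). Of 16 genes of the tricarboxylic acid cycle 2 were higher and 0 lower in cycling cells, Fh1 (0.39) and Cs (0.30), and 0 and 1 in neuronal-like cells. Immune-like cells had 5 higher and 5 lower (1 and 11 with totals), endothelial-like 2 and 4 and mural-like 3 and 2. Of 31 further assembly factors of the complexes, beyond the Ndufaf genes of the rule, 4 were higher and 11 lower in immune-like (2 and 22 with totals), 3 and 10 in endothelial-like and 1 and 6 in mural-like cells, against 0 and 4 in cycling and 1 and 3 in neuronal-like cells. Calls for all these genes are edgeR adjusted p under 0.05, and between stem-like and progenitor-like cells 0 were called in any of these lists.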

How the data were processed

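Dissociated cells of 3 tumours were profiled with droplet libraries of the 10x Genomics 3' kit. The deposited values are raw UMI counts for each gene and barcode, for which the authors ran Cell Ranger 3.1.0 with the mm10 reference. A cell was removed when it both had few genes (under the 5th percentile, minimum 384, 407 and 367 genes) and exceeded a mitochondrial limit (16.6, 20 and 15.4%), which took 291, 30 and 151 cells. The study combined the same criteria but set its mitochondrial limits by eye, and here they were 3 scaled median absolute deviations above the median, at most 20%. Scrublet in scanpy 1.11.5 ranked doublets, and those above a fixed rate of 0.8% per 1000 cells were removed (1114, 701 and 235). The removal of non-tumour cells was not applied. Free RNA was not corrected for. The files held 12467, 9485 and 6428 barcodes with 79529921, 40151353 and 67645602 UMIs.

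Cells were gated by 11 marker lists (at least 3 distinct genes, then the highest score). Counts were summed per tumour and class with at least 20 cells, and fitted in edgeR 4.0.16 (R 4.3.3) with the quasi-likelihood test, TMM, filterByExpr and the tumour as a block, since the class sums of a tumour come from the same animal. Undifferentiated is the mean of the progenitor-like and stem-like coefficients. Fold changes per tumour used log2(CPM + 0.5) for direction only. In simulated counts of 15517 genes for the neuronal-like comparison, 17.9, 71.6 and 90.9% of genes changed by 0.5, 1 and 2 on the log2 scale were recovered. Intervals are exact and cover counting error only. DESeq2 1.42.0 and the other alternatives are given in the closing section. Positions are from GENCODE M21 on GRCm38, 1-based. The text names the mitochondrial genes as a group, the complex II genes, the tissue isoforms and the members with the largest called differences of the same direction in 3 of 3 tumours. The calls under all 3 scalings are an addition to that rule. The members, lists and tests were chosen with earlier results of these data known. Not every member so named is described, and 1 member is not reported here.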

Additional observations from a re-analysis of the deposited data

How the results depend on the processing

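The count of members called moved with the processing. Without the tumour block it was 1 in place of 15 in neuronal-like cells, 1 in place of 14 in cycling, 30 in place of 53 in immune-like, 20 in place of 41 in endothelial-like and 17 in place of 37 in mural-like cells. After thinning each cell to 2000 UMIs, with shallower cells left out, it was 6 in neuronal-like, 2 in cycling, 34 in immune-like and 14 in mural-like cells. Tumour states without cells that hold a Smarcb1, Ptprc or Epcam UMI gave 9 in neuronal-like and 7 in cycling cells (22.5 and 14.5% of all genes). Library totals gave 8 in neuronal-like cells (27.6% of all genes). No filter on low counts gave 7 in cycling cells (10.5% of all genes). DESeq2 gave 26 in cycling cells and 1 between stem-like and progenitor-like cells (25.3 and 4.61% of all genes). Leaving out each tumour gave 4 to 14 in neuronal-like, 0 to 16 in cycling, 33 to 54 in immune-like, 20 to 37 in endothelial-like, 22 to 31 in mural-like cells and 0 between stem-like and progenitor-like cells. The counts without tumour 1 were the lowest (4, 0, 33, 20 and 22), and those without tumour 2 were 5 in neuronal-like and 3 in cycling cells. The share of all genes called fell as well without the block, without tumour 1 and after thinning, while with library totals it did not fall in neuronal-like cells. In neuronal-like, cycling, immune-like, endothelial-like and mural-like cells it was 26.6, 17.8, 61.5, 54.1 and 45.5%, and became 10.1, 6.32, 49.1, 44.7 and 37% without the block and 9.69, 5.21, 44, 38.8 and 33.5% without tumour 1. Thinning gave 22.4, 12.4, 52.3, 37.4 and 30.3%. Without tumour 2 the shares were 13.3, 9.18, 52.5, 46.0 and 37.9%, and without tumour 3 they were 27.9, 18.8, 60.0, 45.1 and 31.3%. For the levels, thinning took the nuclear set to 0.043 in cycling cells and to -0.0042 between stem-like and progenitor-like cells, and the mitochondrial set to 0.12 in cycling cells, a change of sign in the last 2. TMM factors on the totals, added after seeing the data, gave 0.0978 for the nuclear set in immune-like cells, a change of sign, and -0.13 in endothelial-like cells. Cells of at least 4000 UMIs, an alternative chosen after seeing the data, gave -0.61 for the nuclear set in immune-like cells. For the mitochondrial set between stem-like and progenitor-like cells, removing cells that failed either limit gave 0.11, at least 2 markers 0.0857, the tumour states without Smarcb1, Ptprc or Epcam UMIs 0.41, at least 2000 UMIs 0.18 and at least 4000 UMIs 0.0575. In oligodendrocyte-like cells the same alternatives gave 0.33 (either limit), 0.49 (at least 4 markers), 0.49 (no Smarcb1, Ptprc or Epcam UMI), 0.58, 0.18 and, thinned, 0.88, and in the astro-glial-like gate the either-limit filter gave 0.36. With library totals, also added after seeing the data, 4 gene results in immune-like cells changed sign: Cox7a2l (-0.28), Cox8a (-0.24), Cox4i1 (-0.0525) and Atp5g2 (-0.0118). Of 1170 alternative values for 69 gene results, 966 kept direction and side of the threshold, 200 kept direction only and 4 reversed. The causes were not tested. In the low isoforms, counts of a few UMIs limit what can be read.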
